A study of Caenorhabditis elegans with 16 samples.

Results

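Worms without functional ADARs were compared with wild type at 20 °C, across all transcripts, in 8 of the 16 libraries of the study. The libraries were chosen by their labels: 3 from Bristol N2 and 5 from ADAR mutants, namely 3 from BB4, adr-1(gv6) I with adr-2(gv42) III, and 2 from BB21, adr-1(tm668) I with adr-2(ok735) III. Each mutant strain is 1 line that carries mutations in both genes, so the gene behind a difference cannot be told apart. Poly(A) RNA came from whole L4 cultures grown on NGM plates with OP50 bacteria, and never left 20 °C, whereas the remaining 8 libraries came from worms of the same strains that were heated (34 °C for 75 min, room temperature for 20 min and 20 °C for 3 h). The labels number the libraries of a group as biological replicates.

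ADARs are enzymes that bind double-stranded RNA and deaminate adenosine to inosine, which ribosomes and reverse transcriptase read as guanosine. In C. elegans ADR-2 is the active deaminase, and ADR-1, which lacks deaminase activity, binds RNA and modulates editing by ADR-2. Edited duplexes are poor substrates for Dicer, and worms that lack both proteins are viable, with changes in RNA interference and in small RNAs made from duplexes that ADARs would otherwise edit.

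The titles of the libraries end in codes, some of them shared. Set A (ending 12_7) holds 1 library of each strain, set B (28_6) 1 N2 and 1 BB4 library, and set C pools the libraries with other endings, 1 of each strain, which each end in a code of their own. The labels do not say that the libraries of a set were 1 batch, as the block below takes them to be. The 5 libraries of sets A and B hold 7697788 to 9624995 counts summed over features and the 3 of set C 30011732 to 35693369, where a read that aligned to several transcripts counts for each. The first principal component of the log2 values (72.6% of the variance) parted set C from sets A and B. The second (9.91%) had the 3 N2 libraries at 32.3 to 64.9 and the 5 mutant libraries at -67.5 to -1.71. Deviations from the group mean correlated between an N2 and a mutant library of the same set at 0.524 to 0.899 (Pearson's r across features, 5 pairs). Pairs across sets A and B correlated as strongly (0.535 to 0.624) as pairs within them (0.524 to 0.666), and pairs of set C with set A or B at -0.775 to -0.635, so the values part set C from the others but not set A from set B. The set was fitted as a block, which leaves 4 residual degrees of freedom. Depth and whatever else sets set C apart cannot be told apart. In what follows, values are normalized counts (reads divided by 1 size factor per library), listed for sets A, B and C in N2 and BB4 and for sets A and C in BB21.

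Of the 6 transcript models of the ADAR genes, 5 were lower in every mutant library than in any N2 library. The adr-2 transcript (T20H4.4) had 1338, 1429 and 1442 in N2, 284, 281 and 593 in BB4 and 139.6 and 149 in BB21. Its log2 difference of mutants minus N2 was -2.46 (standard error 0.40, limma adjusted p = 0.0258), and the counts in BB21 lay below those in BB4 in both sets that hold both strains. The main adr-1 transcript (H15N14.1c) had 1853, 1560.1 and 2683 in N2, 558, 464 and 713 in BB4 and 429 and 830.0 in BB21 (log2 difference -1.83, standard error 0.12, limma adjusted p = 0.00201). Of the 5 adr-1 transcript models, 4 passed the test at a log2 difference of -1.86 to -1.83, and as models of 1 gene that share exons they are not independent. The last, H15N14.1g, had few or no reads in sets A and B, with 0, 0 and 132 in N2, 1.64, 0 and 70.2 in BB4 and 5.37 and 25.1 in BB21, with a limma adjusted p of 0.916. Reads at both genes remained in both strains, and no library went against its label at the 5 models that were lower. The plot of levels by library shows these 2 genes beside those described next.

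**Figure D1:**
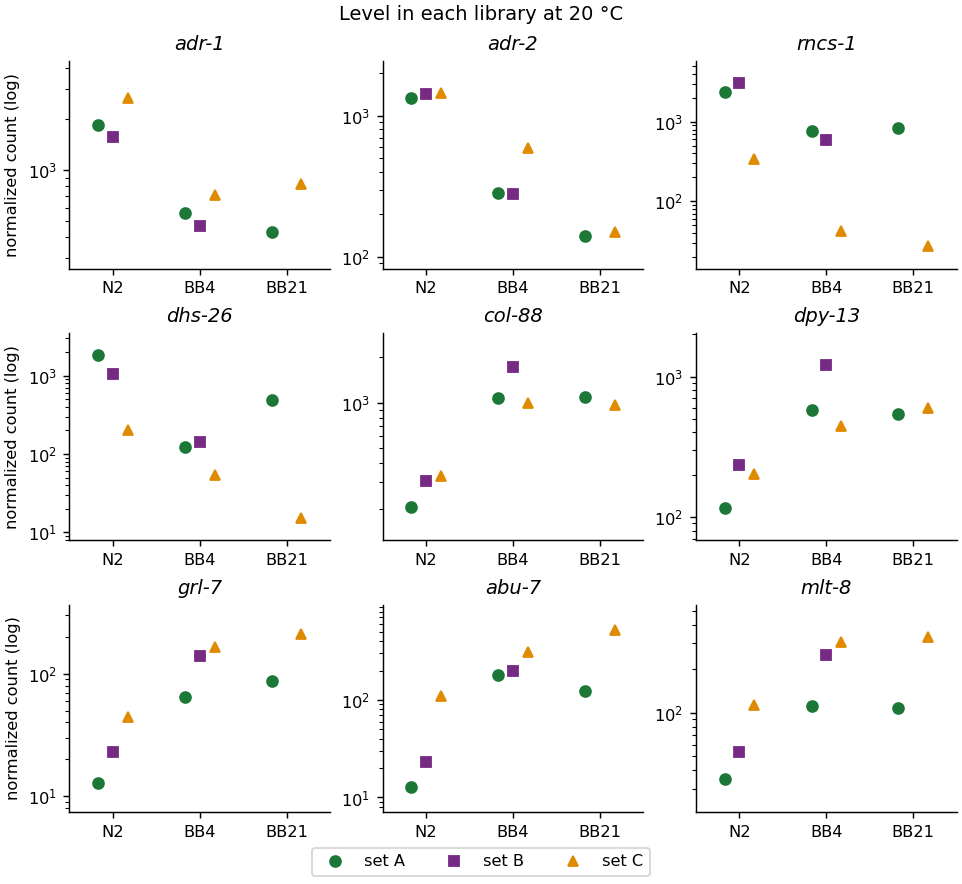
Normalized counts (log axis) of 9 transcripts in each library at 20 °C, by strain, with 1 point for each library and the symbol giving the library set. For adr-1, adr-2 and dhs-26 each mutant library lies below the N2 library of its set, as for rncs-1, and for col-88, dpy-13, grl-7, abu-7 and mlt-8 each lies above it. For rncs-1 and dhs-26 the groups overlap across sets, since N2 of set C had 341 and 205.

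Of 23280 features tested (a feature is a transcript model, with a mean of at least 1 normalized count), 257 differed between mutants and N2 at a limma adjusted p under 0.05, or 1.10%. Higher in mutants were 233 features of 213 genes (1.00% of those tested) and lower were 24 features of 21 genes (0.103%), so that 90.7% of the calls were higher. The higher features differed by a median of 2.10 on the log2 scale, 226 of them by more than 2-fold and 135 by more than 4-fold, and the lower ones by -1.21, with 16 and 5 past the same limits. All 257 had the same sign in each of the 3 sets, where higher or lower in all 3 sets applied to 19.3% and 30.8% of the features tested. The counts of the 5 mutant libraries did not overlap with those of the 3 N2 libraries for 165 of the 233 (2.98% of all features tested) and for 13 of the 24 (2.02%). The median over all features was -0.050.

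The number of calls rests on the block and on single libraries. By limma it was 0 without the set block (1203 at an unadjusted p under 0.05) or with the replicate number as block (1643), 0 without the N2 library of set A (1825), 9 without that of set B, 6 without the BB4 library of set B, 159 without that of set A and 85 without the BB21 library of set C, while in the fits without a block, with the replicate block and without N2 of set A, N2 of set B or BB4 of set B all 257 features kept their sign. In those 5 fits the median standard error of the 257 features was between 0.33 and 0.52, against 0.29 in the fit reported here. The 257 were chosen from these same libraries, so their kept signs are not a separate check.

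**Figure D2:**
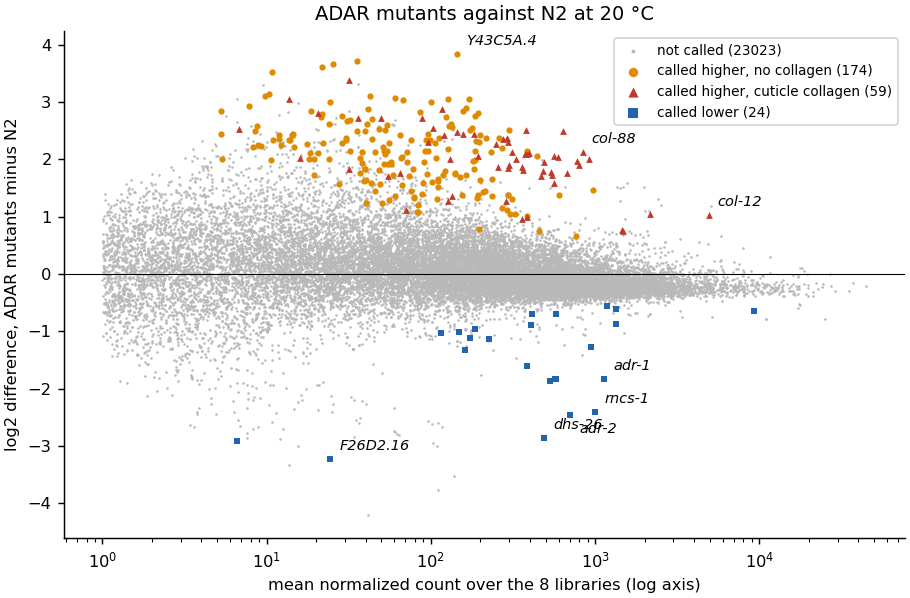
Mean normalized count over the 8 libraries (log axis) against the log2 difference of ADAR mutants minus N2, with 1 point for each of the 23280 features tested. Orange points (174) and red triangles (59, cuticle collagens) passed the test as higher in mutants, blue squares (24) as lower, and adr-1, adr-2, rncs-1, dhs-26, F26D2.16, col-88, col-12 and Y43C5A.4 are named.

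Cuticle collagens made up 25.3% of the 233 higher features. The cuticle is an extracellular matrix of collagens that the epidermis lays down anew for each stage, and the collagen genes are transcribed in successive waves around each molt. Of 180 collagen features tested, 59 rose in mutants and 0 fell (32.8%, against 1.00% of all features), 145 had a log2 difference above 0 (10556 of all 23280 did), and the median was 0.95, or 1.01, 1.06 and 0.45 within sets A, B and C. Among the 15 features of collagens named for body shape (dpy, sqt, rol, lon and bli genes), 12 rose, with log2 differences of 1.28 for sqt-3 to 2.89 for bli-2, and the median of the group was 2.28. The list leaves out rol-1, which also rose (log2 difference 2.15), so rol-1 is in none of the collagen counts. Of the numbered col genes 47 of 159 features rose (0.75 for col-144 to 3.38 for col-41, group median 0.74). The aligner was allowed to place a read more than once, so reads of near-identical collagens can count for several genes. Whole worms were measured, so more RNA in each epidermal cell and more worms at a stage that makes it cannot be told apart.

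The transcript with the lowest p among the higher features was col-88, with 206, 304 and 328 in N2, 1079.8, 1739 and 994 in BB4 and 1100.4 and 974 in BB21 (log2 difference 2.13, standard error 0.17, limma adjusted p = 0.00201). Its counts thus lay at 974 or above in every mutant library and at 328 or below in N2. col-65 had 31.0, 64.0 and 56.1 in N2, 192, 492 and 213 in BB4 and 159.7 and 263 in BB21 (log2 difference 2.44, standard error 0.20, limma adjusted p = 0.00201). For dpy-13, a collagen whose loss makes worms short and stout, counts were 115, 236 and 204 in N2, 574, 1215 and 447 in BB4 and 542 and 597 in BB21 (log2 difference 1.95, standard error 0.20, limma adjusted p = 0.00512). In all 3 genes the BB4 library of set B stood highest.

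A further 8 col genes were among the 15 higher features of lowest p with a mean of at least 20, and all passed: col-120 (2.12), col-49 (1.90), col-175 (2.01), col-14 (2.10), col-91 (2.31), col-156 (2.55), col-162 (2.04) and col-113 (2.01, all log2 differences). Their groups did not overlap. The last of the 15, T06E4.14, now idpc-4, had 16.4, 19.5 and 25.9 in N2, 83.7, 135 and 95.8 in BB4 and 73.8 and 156 in BB21 (log2 difference 2.34, standard error 0.24, limma adjusted p = 0.00517). Other members, chosen after their values were seen, covered a wide range of levels. sqt-1 had 38.3, 362 and 327 in N2, 669.5, 1464 and 667 in BB4 and 739 and 822 in BB21, and its N2 library of set A stood low. The abundant col-12 had 2691, 3186 and 3023 in N2, 7718, 7914 and 3946 in BB4 and 6376 and 4474 in BB21, a smaller log2 difference of 1.03, again with no overlap. bli-1, needed for the struts of the adult cuticle, had 3.65, 17.8 and 63.6 in N2, 21.3, 47.0 and 120.3 in BB4 and 29.5 and 219 in BB21, where N2 of set C lay above 3 mutant libraries of the shallow sets.

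Other collagens did not pass. None of the 7 furrow collagen features, which form the annular furrows, passed, though all 7 had a log2 difference above 0 (median 0.90). The lowest p among them belonged to dpy-9, with 96.8, 103 and 72.8 in N2, 135, 306 and 186 in BB4 and 260.3 and 144 in BB21 (log2 difference 1.19, standard error 0.24, limma adjusted p = 0.0561), and the most abundant, dpy-10, differed by 0.36 (limma adjusted p = 0.172), 49.0% of its annotated exon bases being shared with another gene of the same strand. The most abundant of the col genes and that of the body shape collagens also did not pass, whereas the abundant col-12 did. col-124 had 27753, 26965 and 17989 in N2, 22992, 21539.8 and 16507 in BB4 and 25869 and 10987 in BB21 (log2 difference -0.31, limma adjusted p = 0.24), and col-112, now named bli-6, differed by 0.55 (limma adjusted p = 0.0939). Summed over the col genes, counts were 328486, 324399 and 209329 in N2, 361516, 362976 and 196840.2 in BB4 and 412404 and 174736 in BB21, so the sum was higher in mutants than in N2 in sets A and B and lower in set C.

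Gene families known for their transcription in step with the molts were counted next. Of 91 hedgehog-related and patched-related features 11 rose and 0 fell, where 1.00% of all features rose (median 0.44). grl-7, a ground-like gene of the hedgehog-related family, had 12.8, 23.1 and 44.7 in N2, 64.0, 139.5 and 166 in BB4 and 87.2 and 213 in BB21 (log2 difference 2.33, standard error 0.22, limma adjusted p = 0.00512), and grd-6, a groundhog gene, had 18.3, 19.5 and 55.7 in N2, 128, 202 and 201 in BB4 and 93.9 and 339 in BB21 (log2 difference 2.62, standard error 0.27, limma adjusted p = 0.00512). Neither gene's groups overlapped. The others that rose were grl-5, grl-15, grl-16, grl-21, grd-15, wrt-4 and wrt-10, with log2 differences of 1.57 (grl-15) to 2.75 (grl-21). The most abundant member, the patched receptor homolog ptc-1, differed by -0.20 (limma adjusted p = 0.378).

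Molting enzymes and matrix genes (astacin proteases, cuticlins and mlt genes) had 3 of 111 features higher (1.00% of all features were) and 0 lower, with a median of 0.46. mlt-8, a gene required for molting, had 34.7, 53.3 and 114 in N2, 112, 251 and 308 in BB4 and 107 and 330.1 in BB21 (log2 difference 1.74, standard error 0.18, limma adjusted p = 0.00512), and its N2 library of set C overlapped with the mutant libraries of set A. The astacin protease nas-27 was nearly undetected in N2, with 0, 0 and 1.75 in N2, 18.1, 11 and 14.6 in BB4 and 13.4 and 27.8 in BB21, and the cuticlin F53F1.5, now named cut-2, had 34.7, 83.5 and 52.2 in N2, 200.2, 615 and 109 in BB4 and 174 and 301 in BB21 (log2 differences 3.52 and 2.30). bli-4, the protease that processes collagens and the most abundant of the group, differed by -0.049 (limma adjusted p = 0.788). Glutamine- and asparagine-rich abu and pqn genes, many of them expressed in the pharynx, had 15 of 113 features higher, against the same 1.00%, and 0 lower (median 0.21). pqn-95, now abu-14, had 11, 21.3 and 127 in N2, 98.5, 213 and 374 in BB4 and 65.8 and 467 in BB21 (log2 difference 2.52, standard error 0.29, limma adjusted p = 0.00659). abu-7 had 12.8, 23.1 and 109.6 in N2, 181, 196 and 312 in BB4 and 122 and 525 in BB21, with no overlap. The abu genes are close copies of each other, and some of their reads can be shared.

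Genes that mark the age of the worms were set beside these changes. Heterochronic genes, which time larval stages, had 0 of 35 features called (median 0.29, and 0.33, -0.11 and -0.14 in sets A, B and C), and without the N2 library of set A, or all of set A, the median was -0.091. The period homolog lin-42, whose RNA cycles with the molts, had the lowest p, with 3.65, 0 and 45.6 in N2, 11.5, 18.8 and 56.0 in BB4 and 14.8 and 161 in BB21 (log2 difference 2.13, standard error 0.59, limma adjusted p = 0.117). The adult collagen col-19 had 9051, 8387 and 5325 in N2, 7773, 7500.3 and 4829 in BB4 and 9116 and 3132 in BB21 (log2 difference -0.25, standard error 0.16, limma adjusted p = 0.351). The 9 features of 6 vitellogenin genes, which make yolk in adults, had a median of -0.42, with 1 lower, where 0.103% of all features were. Of 103 sperm features, made in the L4 germ line, 0 were called (median 0.0071, with a sign that turned in 9 of the 22 alternatives), and their summed counts were 130419, 136018 and 58121 in N2, 148205, 147674 and 54959.8 in BB4 and 126975 and 52602 in BB21. Of 27 oocyte and early embryo features 0 were called and 26 were below 0 (median -0.26), with sums of 95295, 98981 and 91005 in N2, 75625, 79911 and 72545 in BB4 and 92099.8 and 66853 in BB21. The part of worm stage in the collagen differences was not tested.

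**Figure D3:**
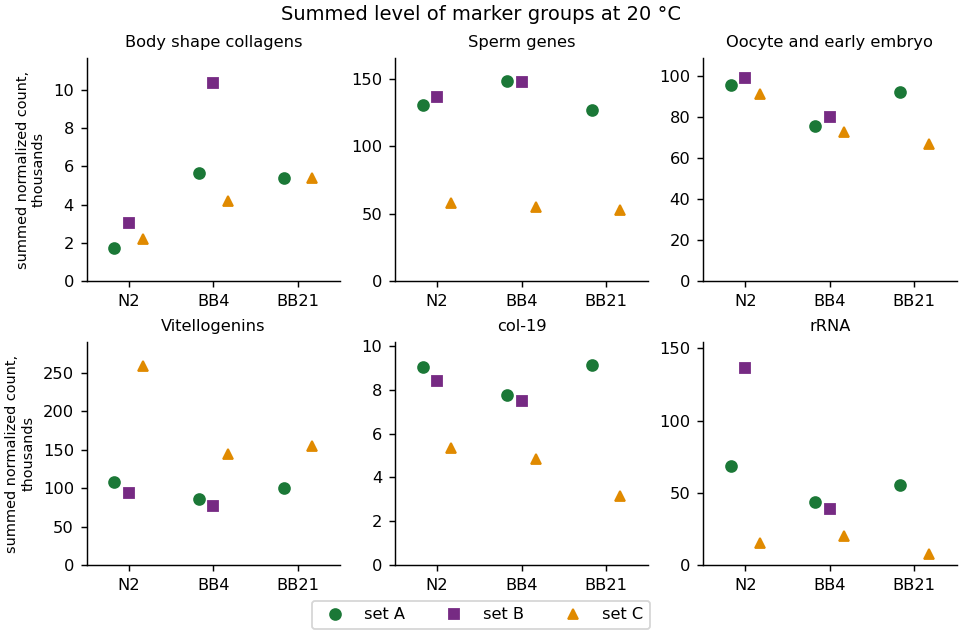
Summed normalized counts (axes in units of 1000) of 5 gene groups and of col-19 in each library at 20 °C, by strain, with the symbol giving the library set. Body shape collagens have sums of 1722 to 3040.3 in N2 and 4196 to 10379 in mutants, without overlap, whereas sperm sums are 52602 to 58121 in set C and 126975 to 148205 in sets A and B.

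RNA of the ribosomes, which poly(A) selection should remove, also differed between libraries. The summed rRNA counts were 68691, 136316 and 15629.8 in N2, 43902, 38925 and 20369 in BB4 and 55324 and 7768 in BB21, between 0.0634% and 0.976% of the summed counts, and the median of the 21 rRNA features was -1.31, with 0 called. That median is also their lowest value, so many of the 21 hold the same value and are not separate measurements. A read placed on several of them counts for each in the sums. Within sets A and B all mutant libraries held less rRNA than N2, and in set C the BB4 library held more. Its part in the differences was not tested.

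Among the 24 lower features, the non-coding RNA rncs-1 differed by more than 4-fold. rncs-1 folds into a long hairpin that is edited by ADARs and is known to bind Dicer. It had 2363, 3056 and 341 in N2, 761, 596 and 41.8 in BB4 and 848 and 27.1 in BB21 (log2 difference -2.41, standard error 0.29, limma adjusted p = 0.00703), and the differences within sets A, B and C were -1.55, -2.36 and -3.30. Each mutant library lay below the N2 library of its set, but N2 of set C lay below all mutant libraries of sets A and B. Of the 8 tested features of RNAs known to be edited, rncs-1 was the only one called, where 1.10% of all features were called and 0.103% were lower. The median of the 8 was -0.012, a sign that turned under 8 of the 22 alternatives. The most abundant, clec-41, had 1671, 1507 and 1917 in N2, 2020.1, 1547 and 1662 in BB4 and 1296 and 2664 in BB21 (log2 difference 0.043, limma adjusted p = 0.908).

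D2005.1, the annotated gene that lies 4 places from adr-1 on the same chromosome, had 831, 727 and 467 in N2, 243, 215 and 212 in BB4 and 197 and 195 in BB21 (log2 difference -1.61, standard error 0.16, limma adjusted p = 0.00512). Every mutant library lay below the N2 library of its set, and the groups did not overlap. The nearer neighbours nsf-1 (-0.21), F58H10.1 (0.080) and the pseudogene H15N14.4 (0.99) did not pass. Neither did those of adr-2, which are R151.8 (-0.10), R151.10 (-0.31), T20H4.5 (-0.50) and pars-1 (-0.33). Of the annotated exon bases of H15N14.4, 28.6% overlap D2005.1 on the opposite strand. The library kit does not mark strand, so reads of D2005.1 and H15N14.4 can be mixed there. Among the 100 annotated genes on each side, 1 of 191 features near adr-1 (D2005.1) was lower, where 0.103% of all features were, and 1 of 172 near adr-2 (C06E8.5, 3.07) higher, where 1.00% were.

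Further lower genes have known products. dhs-26, a short-chain dehydrogenase, had 1846, 1057 and 205 in N2, 121, 143 and 54.4 in BB4 and 483 and 15.1 in BB21 (log2 difference -2.86, standard error 0.48, limma adjusted p = 0.0274). The BB21 library of set A stood apart from the other mutants, and the N2 library of set C overlapped with the mutants. F08A8.2, now acox-1.2, an acyl-CoA oxidase of peroxisomal fatty acid breakdown, had 683, 494 and 445 in N2, 387, 274 and 319 in BB4 and 425 and 296 in BB21 (log2 difference -0.70, standard error 0.12, limma adjusted p = 0.0288), with no overlap. vit-1, a yolk protein gene, had 10577, 8398 and 16666 in N2, 6917, 6194 and 8673 in BB4 and 7768 and 9249 in BB21 (log2 difference -0.64, standard error 0.12, limma adjusted p = 0.0434), so that mutants of set C overlapped with N2 of set B. Y37B11A.2, now rev-3, the catalytic subunit of DNA polymerase zeta, had 223, 192 and 323 in N2, 87.0, 75.3 and 147 in BB4 and 53.7 and 182 in BB21 (log2 difference -1.34, standard error 0.22, limma adjusted p = 0.0257), and its groups did not overlap either.

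The other lower features of lowest p, all of which passed, were T22B7.7 (-1.27), T12A2.1 (now amdh-1, -1.01), the ncRNA Y53F4B.45 (-1.14), F09E10.1 (-1.02), F26D2.16 (-3.24), dod-23 (-0.87), a gene named for its place downstream of DAF-16, and ZK813.3 (-0.56, all log2 differences). Of these, only T12A2.1 and Y53F4B.45 showed no overlap of the groups. F26D2.16 had 14.6, 17.8 and 98.2 in N2, 0, 0 and 15.8 in BB4 and 0 and 49.5 in BB21, so that it was at 0 in the mutants of the shallow sets and detected in those of set C. egl-6, the receptor of FMRFamide-like peptides that inhibits egg laying, was chosen after its values were seen and had 347, 295 and 160.0 in N2, 125, 113 and 127 in BB4 and 122 and 94.5 in BB21 (log2 difference -1.11, standard error 0.21, limma adjusted p = 0.0482). None of its mutant libraries reached the lowest N2 count.

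Genes of the RNA interference machinery, which acts on the same double-stranded RNAs as ADARs, did not pass. Of 37 features of Dicer and of double-stranded RNA entry 0 were called (median -0.16). The lowest p belonged to rde-4, the double-stranded RNA binding partner of Dicer, with 2151, 1901 and 686 in N2, 1544, 1494 and 542 in BB4 and 1503 and 625 in BB21 (log2 difference -0.36, standard error 0.10, limma adjusted p = 0.122). RNA-dependent RNA polymerases and mutator proteins had 0 of 23 features (of 17 genes) called, all 23 below 0 and a median of -0.28. The lowest p was that of rde-2 (log2 difference -0.39, standard error 0.11, limma adjusted p = 0.117). Such a shift was not limited to these genes. Of all 23280 features 10556 lay above 0, and all 27 meiosis features lay below 0 (median -0.23). Argonautes had 0 of 31 called (median -0.023, of either sign among the alternatives), and T22H9.3, now wago-10, had the lowest p, with 27.4, 40.9 and 142 in N2, 87.0, 108 and 125 in BB4 and 96.6 and 365 in BB21 (limma adjusted p = 0.122). Of 47 features of the intracellular pathogen response, genes induced by viruses and microsporidia, 1 rose, where 1.00% of all features did. It was C29F9.3, now pals-23, with 309, 299 and 334 in N2, 617, 479.7 and 566 in BB4 and 423 and 630.4 in BB21 (log2 difference 0.75, standard error 0.14, limma adjusted p = 0.048). The median of that group was 0.19, and -0.037 after quantile normalization.

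Other groups had few or no calls. C-type lectins, many of them induced by microbes, had 3 of 200 features higher (clec-4, 1.60, clec-67, 0.79, and clec-229, 2.01) and 0 lower, and F-box genes 3 of 307 higher (fbxb-36, 2.28, fbxa-163, 2.44, and fbxa-125, 1.33), where 1.00% of all features were higher. Of 20 pharynx features 1 rose, the pharyngeal gland gene phat-1 (2.23), with 0, 1.78 and 6.14 in N2, 6.56, 17.2 and 15.8 in BB4 and 4.03 and 22.7 in BB21, an overlap between N2 of set C and BB21 of set A. Annotated pseudogenes had 4 of 993 features higher, or 0.403%, against 1.00% of all features, and 0 lower. Their median was 0.14, and 0.25, 0.025 and 0.056 in sets A, B and C. All mutant counts lay above all N2 counts for 64 of the 993, where 2.98% of all features did. They lay below for 7, where 2.02% of all features did. The 4 called were fbxb-36, col-66, Y116F11B.10 and Y41C4A.1, and Y116F11B.10 had 128, 140.4 and 291 in N2, 341, 298 and 429 in BB4 and 399.9 and 416 in BB21. For fbxb-36, counted above as an F-box gene too, 82.5% of the annotated exon bases are shared with the protein-coding F07E5.13 on the same strand. Annotated non-coding RNAs had 3 of 440 features higher and 2 lower, where 1.00% and 0.103% of all features were. Those that rose were tts-2 (1.74), C03A7.15 (2.44) and AC3.16 (2.01), and C03A7.15 and AC3.16 overlap exons of abu-6 and abu-1 on the opposite strand, whose reads the library kit, which does not mark strand, leaves mixed with theirs.

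No feature was called, in either direction, among ribosomal proteins (89 tested, median -0.23), histones (72, -0.24), germ granule genes (32, -0.23), meiosis genes (27, -0.23), heat-shock proteins (33, -0.22), antimicrobial peptides (90, -0.021), cytochromes P450 with UDP-glucuronosyl and glutathione transferases (198, -0.10), MATH/BTB genes (95, -0.048), chemosensory receptors (474, 0.030), nuclear hormone receptors (311, 0.032), neuropeptides (63, 0.088), neuronal genes (40, 0.17), body wall muscle (49, 0.082), intestine (31, -0.047), fatty acid desaturases and elongases (21, -0.18), snRNA and snoRNA (103, -0.54) and the mitochondrial genome (14, -0.28). All 27 meiosis features lay below 0, as did 88 of 89 ribosomal protein features, where 10556 of all 23280 features lay above 0 and the median over all was -0.050. hsp-1, a constitutive HSP70 chaperone, had the lowest p of the heat-shock proteins, with 16759, 17064 and 15895 in N2, 13123, 14375 and 10950.2 in BB4 and 12680.0 and 11375 in BB21 (log2 difference -0.39, standard error 0.10, limma adjusted p = 0.112). Its mutant counts all lay below those of N2. Markers of muscle (unc-54, myo-3), intestine (ges-1, elt-2), neurons (rab-3, snb-1, unc-17) and pharynx (myo-1, myo-2) were detected in all 8 libraries, and none was called. Quantile normalization turned the sign of the median for antimicrobial peptides, chemosensory receptors, nuclear hormone receptors, the intestine and fatty acid enzymes, and TMM scaling that for antimicrobial peptides. Left-out libraries turned others: the median of snRNA and snoRNA was 0.081 without N2 or BB4 of set B, that of body wall muscle -0.13 without N2 of set A, and that of the P450 and transferase group 0.012 without N2 of set A. With the replicate block the medians of MATH/BTB genes and neuropeptides were 0.022 and -0.10. In all, 18 gene lists, those of the preceding paragraphs included, had a median that turned under at least 1 alternative.

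**Figure D4:**
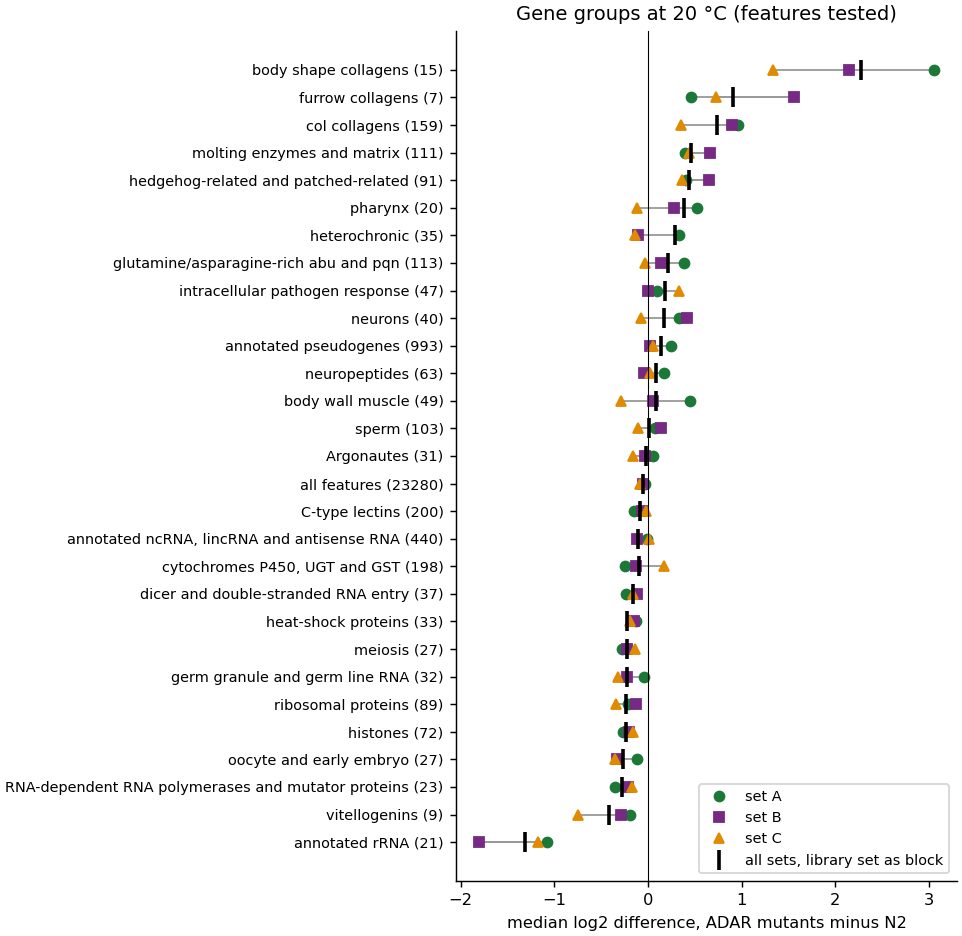
Median log2 difference of ADAR mutants minus N2 for 28 gene groups and for all features, with the number of features tested in brackets. Symbols give the difference within each library set and the black mark that of the fit over all sets, and the body shape collagens lie farthest above 0 in all 3 sets (3.05, 2.14 and 1.34 in sets A, B and C), whereas all features lie at -0.031, -0.058 and -0.090.

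The mutant strains were compared with each other to see whether the alleles differ. No feature passed between BB4 and BB21 by limma (0 of 23280, or 0.00%, with 1396 at an unadjusted p under 0.05), nor by edgeR (0, with 1211 unadjusted), while DESeq2 called 19 and leaving out the BB21 library of set C left 276 calls by limma, with the 1 remaining BB21 library assumed to vary like the other groups. The lowest p belonged to met-1, adr-2, Y18H1A.3 and F54D11.2. adr-2 was higher in BB4 than in BB21 by 1.40 on the log2 scale (standard error 0.25, limma adjusted p = 0.77). met-1, a histone H3 lysine methyltransferase, had 624, 656 and 1378 in N2, 433, 478 and 860.3 in BB4 and 876 and 1571 in BB21, a log2 difference of BB4 minus BB21 of -0.92 (standard error 0.14, limma adjusted p = 0.77). Its counts were lower in BB4 than in N2 and higher in BB21 than in N2 in every set that holds them. The 233 higher features had a median difference from N2 of 2.13 in BB4 and 1.97 in BB21, averaged over the sets of each strain, and the 24 lower ones -1.15 and -1.23, both being values that the choice of these features used. Fitted alone against N2, BB4 gave 130 calls and BB21, with 2 libraries, 1.

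The same measure was read in the 8 heat-shocked libraries, which the comparison at 20 °C did not use, though they came from the same strains and library sets, a comparison chosen after the data were seen. No feature passed there (0 of 24896 by limma, or 0.00%, with 2530 at an unadjusted p under 0.05). Of the 233 features called higher at 20 °C, 220 had a difference above 0 after heat shock, where 50.9% of all features did. An unadjusted p under 0.05, in either direction, was found for 181 of the 233. Of all features, 6.31% had such a p and lay above 0, and 3.79% had one and lay below 0. The 233 differed between the sets. The median of the 233 after heat shock was 2.69 in set A, 2.36 in set B and 0.18 in set C, against 2.27, 2.30 and 1.59 at 20 °C, and 214, 224 and 141 of them lay above 0. Of the 24 lower features, 23 lay below 0 after heat shock, with medians of -1.22, -1.07 and -0.88 in the 3 sets.

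**Figure D5:**
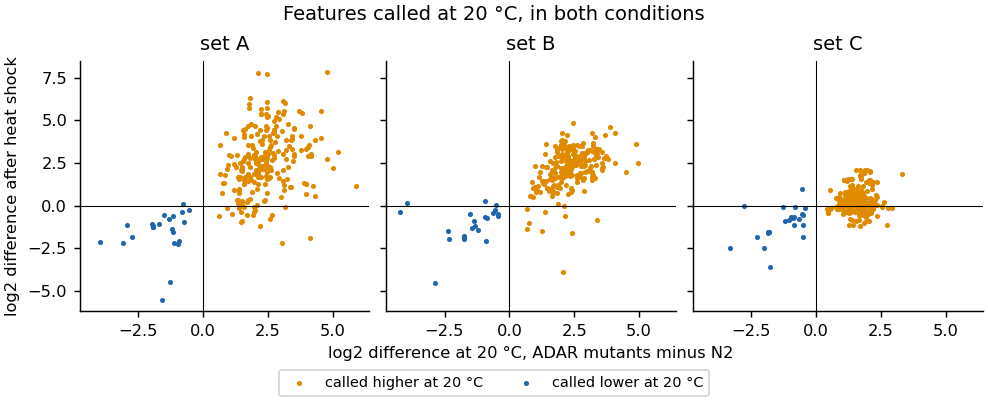
Log2 difference of ADAR mutants minus N2 at 20 °C (x axis) and after heat shock (y axis) within each library set, with 1 point for each of the 257 features called at 20 °C. In sets A and B most orange points (called higher) lie above 0 on both axes, with medians after heat shock of 2.69 and 2.36, while in set C their median after heat shock is 0.18.

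After heat shock col-88 had 1455, 723 and 6316 in N2, 11445, 5251 and 6366 in BB4 and 4868 and 3812 in BB21. In sets A and B every mutant library thus lay above N2, and in set C BB4 lay just above N2 and BB21 below it. rncs-1 had 6402, 3073 and 111 in N2, 53.3, 1071 and 19.1 in BB4 and 347 and 19.3 in BB21, each mutant library below the N2 library of its set, and adr-2 had 732, 982 and 1060.3 in N2, 247, 251 and 533 in BB4 and 162 and 155 in BB21. The difference of the differences, after heat shock minus at 20 °C, was tested over all 16 libraries, and 0 of 24401 features passed by limma (0.00%, with 1742 at an unadjusted p under 0.05) and 0 by edgeR (1214 unadjusted), whereas DESeq2 called 16. For col-88 it was -0.63 (standard error 0.67, limma adjusted p = 0.786). The lowest p values belonged to F53B2.8, cdr-5, F12F6.17, F33H12.7 and C10C5.2. F33H12.7, one of the features called higher at 20 °C, had 1.83, 5.33 and 21.0 in N2, 64.0, 32.9 and 74.1 in BB4 and 37.6 and 95.2 in BB21 at 20 °C and 1154, 622 and 29.4 in N2, 168, 205 and 36.0 in BB4 and 577 and 22.6 in BB21 after heat shock, so that the log2 difference moved by -4.01 (standard error 0.72, limma adjusted p = 0.608). Its mutant counts were all above N2 at 20 °C and mostly below it after heat shock.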

How the data were processed

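Whole L4 worms were ground, and poly(A) RNA was made into libraries with an Illumina TruSeq RNA kit, which does not mark strand, and read as single 50-bp reads. The authors trimmed and collapsed the reads, aligned them with Bowtie to WS220 transcripts with multiple alignments allowed, and counted reads per transcript. Versions of these tools are not given in the sources used here. The deposited signal values are counts divided by 1 DESeq2 size factor per library, and all values came out as whole reads after multiplication (tolerance 0.001). Whether collapsed copies of a read were still counted is not given in the sources used here, and dropping them would lower the counts of abundant transcripts. Multiple alignments count 1 read for several transcripts: 722 of 26080 features hold the same reads as another.

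log2(normalized count + 1) was fitted with limma 3.58.1 (R 4.3.3, eBayes with trend) on 8 libraries, mutants (BB4 and BB21 as 1 group) against N2, with the library set as block, for features with a mean of at least 1, and two-sided p-values were adjusted by Benjamini-Hochberg over all of them. Fold changes are on the log2(value + 1) scale, which understates those of low features. BB4 against BB21 and the difference after heat shock minus at 20 °C were fitted in the same way. edgeR 4.0.16 and DESeq2 1.42.0 on the recovered counts, other pseudocounts, filters, scalings, blocks and left-out libraries were alternatives. Scripts were tested on simulated data. Current names and biotypes came from a WBcel235 annotation (25643 features matched), of which no coordinates are given.

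Replicate numbers did not pair the samples: deviations of same-numbered N2 and mutant libraries correlated at -0.74 to 0.86 (5 pairs). Libraries of 1 group differed by 3.59 to 209 times the counting noise, so none was counted as a duplicate. The named genes were the adr-1 and adr-2 features, the 15 features of lowest p in each direction (mean of at least 20, 1 for each gene), in each gene list the features of lowest p and highest mean, the 2 nearest genes on each side of adr-1 and adr-2, and the 5 features of lowest p in each of the other 2 tests. All others were named after their values were seen. The members, gene lists and tests were chosen with earlier results of these data known.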

Additional observations from a re-analysis of the deposited data

Results flagged for a closer look

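Among the 5 mutant libraries, 1 stood apart from the others, by Dixon's 95% limit, for 7 of 34 features tested, and chance does so for about 1 group in 20. The BB4 library of set B was the highest for 6 collagens that share this deviation: col-88 with 1739 normalized counts (others 974 to 1100.4), col-120 with 706, col-49 with 677, col-175 with 806, col-14 with 854 and dpy-13 with 1215. Without this library 6 features were called in place of 257, with 9 without the N2 library of set B and 6 without all of set B. Set B holds 1 N2 and 1 BB4 library, so leaving out either takes the set out of the comparison. The part of the collagen deviation in the lower count was not tested. dhs-26 stood at 483 in the BB21 library of set A, where the other mutant libraries had 15.1 to 143.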

How the results depend on the processing

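The count of 257 features (233 higher, 24 lower) fell to 0 without the library set block and with the replicate block, and the libraries with the same number are not paired. DESeq2 called 783 (543 higher, 240 lower, 69.3% higher), the fit with no filter 159 (145, 14), BB4 alone 130 (106 higher), BB21 alone 1 (0, 1), all 16 libraries in 1 fit 11 (6, 5), and the fits leaving out set A 137 (128, 9), set B 6 (2, 4) and set C 164 (148 higher). With a pseudocount of 5 there were 47 lower features, and with 1 feature for each gene 41. Leaving out 1 library at a time gave 0 to 342 calls, 0 to 293 higher and 0 to 60 lower. edgeR (210), TMM scaling (209) and quantile normalization (244) stayed within 1.5 times the count, and 193 of the 257 were also called by edgeR and 245 by DESeq2. The sets are unequal in depth, so leaving one out also changes depth, and the cause of the changed counts was not tested. BB4 against BB21 had 19 calls by DESeq2 and 0 to 276 without 1 library (where 1 BB21 library remains, it is assumed to vary like the other groups), and the difference after heat shock 16 by DESeq2 and 0 without any 1 library. Both counts were 0 under the other alternatives.

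Over 34 called or ADAR features and their alternatives, 528 of 845 values kept their direction and side of the threshold, 310 lost the threshold and 7 turned. All 7 belonged to adr-1 H15N14.1g (0.15): -1.18 with edgeR, -0.67 with DESeq2, -0.29 with a pseudocount of 5, -0.052 with quantile normalization, -0.93 without the N2 library of set A or without all of set A, and -0.23 without the BB21 library of set A. Leaving out 1 library at a time moved it between -0.93 and 1.16.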

Other observations

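Outside the gene lists, 137 of the 233 higher features remained. The 3 families whose current names were met most often among them are described, a choice made after the values were seen, and families with fewer higher features were not counted over all their members. Of all features 1.00% rose. All 7 idpc features rose, with log2 differences of 2.34 to 3.04. Of 12 nspb features (nematode-specific peptide family, group b) 6 rose and all 12 lay above 0, with a median of 2.09, and nspb-7 had 0, 3.55 and 13.6 in N2, 72.2, 53.3 and 35.5 in BB4 and 48.3 and 56.0 in BB21. Of 19 dbd features 5 rose (median 0.86). Among them is pqn-32, now dbd-8, which lies inside the gene lists and was counted above with the abu and pqn genes. The feature with the highest log2 difference among those called was Y43C5A.4, with 7.30, 10.7 and 33.3 in N2, 251, 263 and 158 in BB4 and 283 and 147 in BB21 (log2 difference 3.84, standard error 0.46, limma adjusted p = 0.00703).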
